A study of Arabidopsis thaliana with 12 samples.

Results

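The levels of 44 genes of the cell cycle and of DNA replication were followed in the first leaf of Arabidopsis thaliana, out of 34133 identifiers in the files. The members were chosen by gene identifier as the MCM2 to MCM7 helicase subunits, the sliding clamp PCNA, the loaders CDC6 and CDT1, subunits of the origin recognition complex (ORC), cyclins of classes A, B and D, cyclin-dependent kinases (CDKs), the E2F and RBR regulators, inhibitors of the KRP and SIM families, and the CCS52A activators. By phase they were 16 genes of licensing and S phase, 11 of G1/S control, 11 of G2 and mitosis, and 6 inhibitors and regulators of endoreduplication. RNA was sequenced from plants kept for 14 days on Murashige and Skoog plates with 1% sucrose, with 4 libraries of the accession Col-0, 2 each of the accessions Aa-0 and Per-1, 2 of the hybrid Col-0×Aa-0 and 2 of the hybrid Col-0×Per-1. The series' title places the study in the genetics of biomass heterosis, the growth advantage of hybrids over their parents. Every group shared tissue, age and medium and differed in genotype alone by the labels, which do not say whether replicates came from separate plants, so p-values cover the spread among these libraries alone, and part or all of it may be technical. The description of the series has Ler-1 and duplicate libraries, which differs from the sample labels, with Per-1 and 4 libraries of Col-0, and the labels were followed.

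A leaf cell enters S phase when D-type cyclins bound to CDKA inactivate the retinoblastoma protein RBR1 and free the E2F factors, which switch on the genes that license and copy DNA. Licensing means loading of the ring-shaped MCM helicase onto origins marked by ORC, with the help of CDC6 and CDT1, and PCNA then holds the polymerase on the template. A- and B-type cyclins with B-type CDKs carry the cell through G2 and mitosis, and KRP and SIM proteins together with CCS52A, which steers mitotic cyclins to destruction, turn dividing leaf cells to endoreduplication, in which DNA is copied without division.

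The mean level was highest in Col-0 for 15 of 16 licensing genes, the exception being CDC6. Summed over the 16, the licensing genes lay between 28.7 and 39.1 FPKM in Col-0, between 18.6 and 24.4 for Aa-0 and Col-0×Aa-0, and between 11.4 and 14.4 for Per-1 and Col-0×Per-1, with no overlap among the 3 ranges. The median of all genes tested also lay lower than in Col-0 in every other group. The share of all genes with their highest mean in Col-0, or with such ranges, was not counted. Where single genes are described below as lying above or below every library of another group, no share of all genes is given beside them. One cyclin of each of 2 classes stood apart in size, with CYCD3;2 lowest in Aa-0 and CYCB2;3 several times higher in Aa-0 and Per-1 than in Col-0. Of the 6 inhibitors and activators of endoreduplication 0 passed the limma test over the 5 groups and 1 had an unadjusted p under 0.05, where 25.6% of all genes tested passed, a share from which so few genes cannot be told apart. Levels are in FPKM, a unit that by its name scales fragments by transcript length and by library, though the sources used here do not say how the authors took the library total. Differences are on the log2(FPKM + 1) scale, which understates the change of genes as low as most of these. A gene was tested when at least 2 libraries reached 1 FPKM, and calls were made in limma where the p adjusted by Benjamini-Hochberg over all 17203 genes tested was under 0.05.

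The filter kept 32 of the 44 members. The other 12 were CDT1B, ORC1A, ORC1B, ORC2, ORC3, DEL1, CYCA2;1, CYCB1;1, CYCB2;1, CYCB2;2, CDKB1;1 and CDKB1;2. All 12, and ORC6 among the members tested, had a mean under 1 FPKM in every group and are low throughout. Where p-values of the 12 are given without the filter, they rest on such low levels. The share of all genes called in that run is not given here. ORC6 and CDT1A reached 1 FPKM in Col-0 libraries alone, so they could be tested only because Col-0 was high. Counts of the licensing genes are given without them where they matter. The counts over all members, and the medians of the members and of the licensing genes, include both. None of these is given without them, so part of each fall from Col-0 comes from the filter. The FPKM of a library summed to between 723379 and 754844, with 20772 to 21781 genes above 0, and absolute depth is unknown. The median gene lay lower than in Col-0 in every other group, by 0.136 in Aa-0, 0.191 in Per-1, 0.105 in Col-0×Aa-0 and 0.228 in Col-0×Per-1 on the log2(FPKM + 1) scale, and scaling by median ratios brought these shifts to between -0.004 and 0.004. Since the libraries do not mark strand, reads of the 18 members that overlap another annotated gene, among them MCM7, PCNA2, CDC6, CYCD3;2, E2FA, RBR1, CDKB2;1, CDKB2;2, SIM and LGO, cannot be told from those of the partner. In bulk leaf RNA, fewer dividing cells and less RNA per cell cannot be told apart. TAIR10, the build named in the processing notes, is the genome of Col-0. Loss of reads from the other genotypes in mapping was not tested and cannot be told from a lower level.

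The choice of members used no promoter sequence. The 8-base E2F motif, searched as TTTCCCGC, TTTGGCGC, TTTGCCGC or TTTCGCGC on both strands in the 250 bases before and 50 bases after the annotated gene start, was present for 8 of 16 licensing genes, 2 of 11 G1/S genes (CYCD3;3 and RBR1), 0 of 11 G2 and mitosis genes and 0 of 6 inhibitors. Over all 27443 protein-coding genes 1.76% of such windows held it. Of the 6 MCM genes 5 held it, the exception being MCM7, and it was also absent from the windows of PCNA1, PCNA2, CDC6, CDT1A, CDT1B, ORC1B and ORC6. The core of the mitosis-specific activator element, CNAACGG, was found for 5 of 11 G2 and mitosis genes, namely CYCB1;1, CYCB1;2, CYCB2;1, CYCB2;2 and CYCB2;3, against 5.52% of all protein-coding genes, and for 1 of 16 licensing genes. It was also found for 1 of 11 G1/S genes, RBR1, and for 0 of 6 inhibitors. ORC2 and RBR1 held both motifs, at separate places in the window. The match is a description of letters and shows no binding. The 250 bases before the start of the 5 MCM genes that hold the motif are shown 5′ to 3′ to place it, with the motif or its reverse complement in capitals, read from the RefSeq genome TAIR10.1. MCM7, without a match, was called lower than Col-0 in Per-1 and Col-0×Per-1 like these 5.
MCM2 (AT1G44900), chr1:16969964-16970213, plus strand: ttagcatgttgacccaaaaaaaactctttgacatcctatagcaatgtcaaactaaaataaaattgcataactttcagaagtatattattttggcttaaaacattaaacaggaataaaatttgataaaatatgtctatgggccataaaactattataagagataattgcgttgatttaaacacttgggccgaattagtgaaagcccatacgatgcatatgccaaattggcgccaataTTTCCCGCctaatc
MCM3 (AT5G46280), chr5:18773707-18773956, minus strand: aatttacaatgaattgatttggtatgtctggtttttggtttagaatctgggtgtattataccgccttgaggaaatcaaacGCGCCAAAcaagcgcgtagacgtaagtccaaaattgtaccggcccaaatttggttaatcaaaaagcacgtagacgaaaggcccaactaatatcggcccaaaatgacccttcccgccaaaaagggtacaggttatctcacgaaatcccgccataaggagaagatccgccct
MCM4 (AT2G16440), chr2:7130730-7130979, minus strand: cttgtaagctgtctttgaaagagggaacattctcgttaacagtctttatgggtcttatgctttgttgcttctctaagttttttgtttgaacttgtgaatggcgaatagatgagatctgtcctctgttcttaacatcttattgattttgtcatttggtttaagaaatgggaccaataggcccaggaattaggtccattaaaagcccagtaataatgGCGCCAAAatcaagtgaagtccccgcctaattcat
MCM5 (AT2G07690), chr2:3527501-3527750, minus strand: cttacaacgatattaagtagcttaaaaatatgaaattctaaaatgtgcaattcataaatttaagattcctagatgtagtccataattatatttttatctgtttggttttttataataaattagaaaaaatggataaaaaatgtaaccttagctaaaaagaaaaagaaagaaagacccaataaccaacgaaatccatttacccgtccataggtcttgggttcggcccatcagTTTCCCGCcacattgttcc
MCM6 (AT5G44635), chr5:18010668-18010917, minus strand: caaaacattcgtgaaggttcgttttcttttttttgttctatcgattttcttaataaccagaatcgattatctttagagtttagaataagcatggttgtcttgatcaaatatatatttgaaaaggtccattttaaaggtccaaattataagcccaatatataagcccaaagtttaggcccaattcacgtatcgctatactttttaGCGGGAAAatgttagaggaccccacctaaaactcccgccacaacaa
Counted from the annotated gene start, the first base of the motif lay at -14 in MCM2, -19 in MCM5, -35 in MCM4, -46 in MCM6 and -170 in MCM3.

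**Figure D1:**
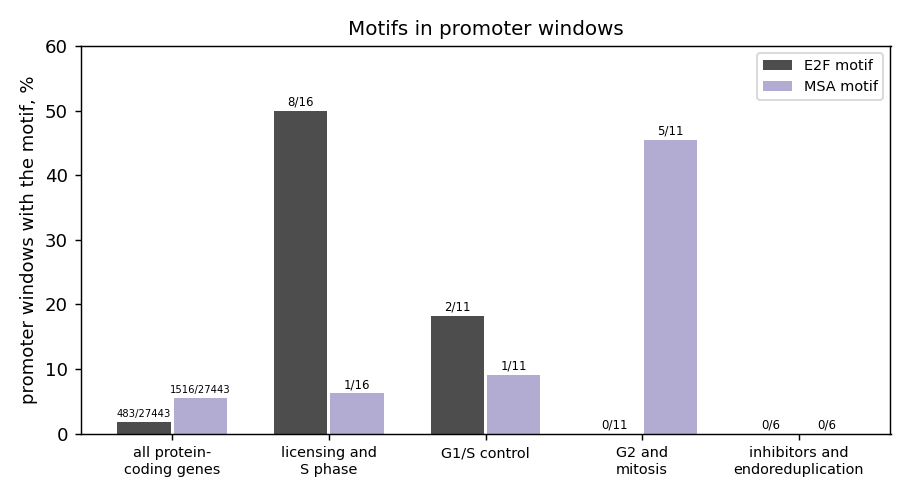
Share of promoter windows (y axis, %) that hold an E2F motif (dark bars) or the MSA core (light bars), for all protein-coding genes and for the members of each phase (x axis), with the number of windows above each bar. The E2F motif was in 8 of 16 licensing windows and the MSA core in 5 of 11 windows of G2 and mitosis genes, against 1.76% and 5.52% of all protein-coding genes.

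Over the 5 groups, 14 of the 32 members tested differed, where 25.6% of all genes tested did. By phase these were 9 of 11 licensing genes (8 of 9 without ORC6 and CDT1A), 2 of 10 G1/S genes, 3 of 5 G2 and mitosis genes, and 0 of 6 inhibitors, of which 1 had an unadjusted p under 0.05. The 14 were MCM2 to MCM7, PCNA2, CDC6, ORC6, CYCD3;2, E2FA, CYCB2;3, CDKB2;1 and CDKB2;2. Under median-ratio scaling 9 were called, without Col-0 replicate 3 the count was 8, and without Per-1 replicate 1 or Col-0×Per-1 replicate 2 it was 9. Of the 14, the calls of MCM2, MCM3, MCM6, MCM7, PCNA2, CDC6, CYCD3;2 and CYCB2;3 held under every alternative run.

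The MCM subunits form the hexameric ring that unwinds DNA at the replication fork. The 6 subunits summed to 13.9, 12.9, 16.6 and 19.4 FPKM in the Col-0 libraries, 8.4 and 8.54 for Aa-0, 7.35 and 7.46 for Per-1, 10.13 and 10.83 for Col-0×Aa-0 and 6.33 and 5.23 for Col-0×Per-1. No library of another group reached the lowest Col-0 library, and the group mean was highest in Col-0 and lowest in Col-0×Per-1 for each of the 6 subunits. The median of all genes tested was also furthest below Col-0 in Col-0×Per-1, at -0.228. The share of all genes in this order was not counted.

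MCM2 (AT1G44900) was at 2.19, 2.14, 3.28 and 3.4 FPKM in Col-0, 1.21 and 1.23 for Aa-0, 1.28 and 1.1 for Per-1, 1.96 and 1.98 for Col-0×Aa-0 and 1.35 and 0.95 for Col-0×Per-1. The 2 accessions and Col-0×Per-1 lay below every library of Col-0 and of Col-0×Aa-0. MCM3 (AT5G46280) was at 2.73, 2.43, 2.86 and 3.59 FPKM in Col-0, 1.49 and 1.31 for Aa-0, 1.17 and 1.58 for Per-1, 1.72 and 1.59 for Col-0×Aa-0 and 1.17 and 0.77 for Col-0×Per-1. MCM7 (AT4G02060, also called PROLIFERA) was at 3.21, 3, 3.72 and 4.05 FPKM in Col-0, 1.97 and 1.83 for Aa-0, 1.57 and 1.26 for Per-1, 1.75 and 2.47 for Col-0×Aa-0 and 0.97 and 1.25 for Col-0×Per-1. For MCM3 and MCM7, as for MCM2, MCM5 and MCM6, all Col-0 libraries stood above all others.

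MCM4 (AT2G16440) was at 1.97, 1.84, 2.28 and 3.2 FPKM in Col-0, 1.25 and 1.57 for Aa-0, 1.12 and 1.56 for Per-1, 1.98 and 1.83 for Col-0×Aa-0 and 0.92 and 1.13 for Col-0×Per-1. Here Col-0×Aa-0 overlapped Col-0, which it did not for MCM2 or MCM5. MCM5 (AT2G07690) was at 2.4, 2.37, 2.77 and 3.43 FPKM in Col-0, 1.45 and 1.71 for Aa-0, 1.72 and 1.37 for Per-1, 1.71 and 1.91 for Col-0×Aa-0 and 1.43 and 0.72 for Col-0×Per-1. MCM6 (AT5G44635), the lowest of the 6, was at 1.39, 1.08, 1.7 and 1.73 FPKM in Col-0, 1.03 and 0.89 for Aa-0, 0.49 and 0.59 for Per-1, 1.01 and 1.05 for Col-0×Aa-0 and 0.49 and 0.41 for Col-0×Per-1. Per-1 and its hybrid lay at less than the other groups for MCM6, with no overlap.

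**Figure D2:**
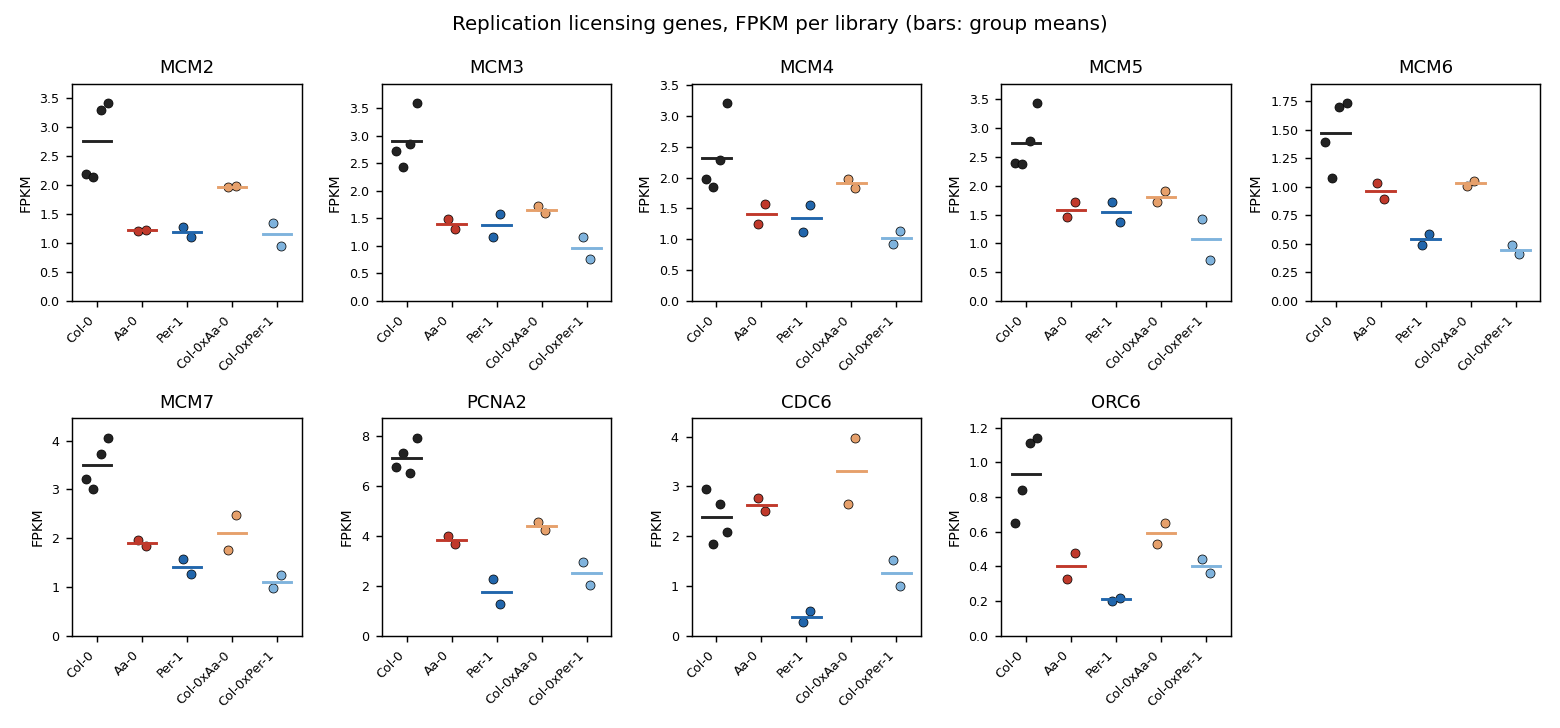
FPKM (y axis, linear from 0) of the 9 licensing genes called over the 5 groups, 1 point per library and a bar at each group's mean, by group (x axis). For MCM2, MCM3, MCM5, MCM6, MCM7 and PCNA2 the 4 Col-0 points stand above all other libraries. CDC6 is low in Per-1 alone among the parents, at 0.28 and 0.49 FPKM.

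PCNA2 (AT2G29570) and PCNA1 (AT1G07370) encode the sliding clamp. PCNA2 was at 6.73, 7.3, 6.52 and 7.9 FPKM in Col-0, 4 and 3.67 for Aa-0, 2.26 and 1.26 for Per-1, 4.54 and 4.22 for Col-0×Aa-0 and 2.96 and 2.02 for Col-0×Per-1. It had the largest fall of the licensing genes in Per-1, where it was 1.58 ± 0.162 (SE) below Col-0 (adjusted p = 9.67e-05), and it was also lower in Per-1 than in Aa-0 (difference -0.83 ± 0.187, adjusted p = 0.0196). The call against Aa-0 was lost under 3 of 18 alternatives, each with 1 library of Aa-0 or Per-1 left out. PCNA1 ranged from 2.05 to 3.84 FPKM in Col-0 and from 1.37 to 2.75 in the other groups, and did not pass the test over the 5 groups.

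CDC6 (AT2G29680), the ATPase that recruits MCM rings to origins, had a different order. It was at 2.94, 1.85, 2.64 and 2.09 FPKM in Col-0, 2.76 and 2.5 for Aa-0, 0.28 and 0.49 for Per-1, 2.65 and 3.97 for Col-0×Aa-0 and 1.53 and 0.99 for Col-0×Per-1. Aa-0 and its hybrid overlapped Col-0, Per-1 lay far below, and Col-0×Per-1 lay between its parents. The difference of Per-1 was -1.28 ± 0.178 (SE) from Col-0 (adjusted p = 0.000772) and -1.39 ± 0.205 from Aa-0 (adjusted p = 0.00189), and both calls held under every alternative run.

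The origin recognition subunits and CDT1B were low, and CDT1A had a mean above 1 FPKM in Col-0 alone, at 1.31. ORC6 (AT1G26840) was at 0.65, 0.84, 1.11 and 1.14 FPKM in Col-0, 0.33 and 0.48 for Aa-0, 0.2 and 0.22 for Per-1, 0.53 and 0.65 for Col-0×Aa-0 and 0.44 and 0.36 for Col-0×Per-1. CDT1A (AT2G31270), which helps to load the helicase, ranged from 0.84 to 1.9 FPKM in Col-0 and from 0.44 to 0.78 elsewhere. ORC1A, ORC1B, ORC2 and ORC3 ranged from 0 to 0.94 FPKM and CDT1B from 0.18 to 0.61. Without the filter, ORC1B (AT4G12620) and ORC3 (AT5G16690) were called lower than Col-0 in Aa-0 (adjusted p = 0.0175 and 0.0202), in Per-1 (0.0079 and 0.0381) and in Col-0×Per-1 (0.00669 and 0.014), and CDT1B (AT3G54710) in Col-0×Per-1 (0.0209).

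Of the D-type cyclins, which link growth signals to entry into the cycle, CYCD3;2 (AT5G67260) varied most. It was at 19.3, 19.8, 18.8 and 20 FPKM in Col-0, 5.19 and 6.67 for Aa-0, 11.4 and 14 for Per-1, 11.3 and 10.4 for Col-0×Aa-0 and 15.6 and 14.2 for Col-0×Per-1. The Col-0 libraries were tightly grouped and above all others, Aa-0 was below all others, and each hybrid lay between its parents. The difference from Col-0 was -1.57 ± 0.118 (SE) in Aa-0 (adjusted p = 1.14e-05) and -0.58 ± 0.118 in Per-1 (adjusted p = 0.00659), and Per-1 was 0.99 ± 0.137 above Aa-0 (adjusted p = 0.00127). CYCD1;1, CYCD2;1, CYCD3;1 and CYCD3;3 ranged from 1.7 to 9.73 FPKM over all libraries and did not pass the test over the 5 groups. CYCD1;1 alone of these was called in a comparison of pairs, lower in Per-1 than in Col-0 (difference -0.58 ± 0.177, adjusted p = 0.0367), a call lost under 10 of 18 alternatives, median-ratio scaling and 6 single libraries left out among them.

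E2FA (AT2G36010), an activating E2F, was at 2.33, 2.36, 2.66 and 2.59 FPKM in Col-0, 2.07 and 2.14 for Aa-0, 1.49 and 1.37 for Per-1, 1.78 and 2.53 for Col-0×Aa-0 and 1.6 and 1.76 for Col-0×Per-1. Per-1 was the lowest group, and its difference from Col-0 was -0.52 ± 0.113 (SE, adjusted p = 0.00898). That call was lost under 2 of 18 alternatives, each without 1 of the Per-1 libraries. The E2FA call over the 5 groups was lost under 15 of 18. E2FB and E2FC ranged from 1.6 to 3.55 FPKM and were not called in any of the 11 comparisons, and DEL1, an atypical E2F that holds back endoreduplication, ranged from 0.1 to 0.7, with an adjusted p of 0.0453 in Per-1 against Col-0 without the filter. RBR1 (AT3G12280) was at 11.7, 11.7, 8.61 and 8.76 FPKM in Col-0, 7.13 and 7.47 for Aa-0, 7.84 and 7.56 for Per-1, 7.91 and 8.43 for Col-0×Aa-0 and 7.29 and 6.57 for Col-0×Per-1. It was called lower in Col-0×Per-1 than in Col-0 (difference -0.48 ± 0.136, adjusted p = 0.0359), a call lost under 11 of 18 alternatives, among them Col-0 replicates 3 and 4 alone. CDKA;1 (AT3G48750), the kinase active throughout the cycle, was at 19.4, 20.5, 21.2 and 20.7 FPKM in Col-0, 29.5 and 22.8 for Aa-0, 19.6 and 21.5 for Per-1, 22.1 and 21.5 for Col-0×Aa-0 and 21.3 and 19.9 for Col-0×Per-1. Both Aa-0 libraries lay above all others, and Aa-0 was 0.33 ± 0.112 above Col-0 (adjusted p = 0.0728, under the threshold with median-ratio scaling).

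Among the G2 and mitosis genes CYCB2;3 (AT1G20610), a mitotic cyclin, ran opposite to the licensing genes. It was at 0.67, 0.82, 1.15 and 1.4 FPKM in Col-0, 5.78 and 5.06 for Aa-0, 4.27 and 5.63 for Per-1, 3.56 and 2.43 for Col-0×Aa-0 and 2.29 and 2.42 for Col-0×Per-1. Every library of the other accessions was above every hybrid library, and every hybrid library was above Col-0. The difference from Col-0 was 1.69 ± 0.176 (SE) in Aa-0 (adjusted p = 0.000127), 1.57 ± 0.176 in Per-1 (0.000177), 0.99 ± 0.176 in Col-0×Aa-0 (0.0161) and 0.75 ± 0.176 in Col-0×Per-1 (0.0185). Its promoter is printed for comparison with the licensing genes, 5′ to 3′ from RefSeq TAIR10.1, with the MSA core in capitals.
CYCB2;3 (AT1G20610), chr1:7137829-7138078, minus strand: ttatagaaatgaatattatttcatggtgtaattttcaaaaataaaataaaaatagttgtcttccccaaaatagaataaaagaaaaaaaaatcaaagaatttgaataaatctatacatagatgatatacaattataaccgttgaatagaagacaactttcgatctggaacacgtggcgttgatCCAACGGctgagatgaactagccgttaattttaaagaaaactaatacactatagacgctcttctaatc
It holds the MSA core and no E2F motif.

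No other member among the mitotic genes was called higher than Col-0. CYCB1;1 (AT4G37490), a widely used marker of cells at the transition from G2 to mitosis, was low, at 0.38, 0.45, 0.6 and 0.7 FPKM in Col-0, 0.27 and 0.87 for Aa-0, 0.95 and 0.64 for Per-1, 0.18 and 0.72 for Col-0×Aa-0 and 0.31 and 0.28 for Col-0×Per-1. The groups overlapped and it was not tested with the filter. Without the filter its adjusted p over the 5 groups was 0.509. CYCB1;2 ranged from 0.6 to 1.36 FPKM and CYCA2;3 from 1.23 to 2.53, with neither called, and CYCA2;1, CYCB2;1 and CYCB2;2 from 0 to 0.48.

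The B-type CDKs, kinases found in plants and tied to mitosis, reached at most 2.57 FPKM in any library. CDKB2;1 (AT1G76540) was at 2.3, 2.08, 2.29 and 2.57 FPKM in Col-0, 2.1 and 2.1 for Aa-0, 1.8 and 1.8 for Per-1, 1.51 and 1.49 for Col-0×Aa-0 and 1.51 and 1.43 for Col-0×Per-1. Both hybrids lay below all parental libraries, and the share of all genes in that position is not given here. CDKB2;2 (AT1G20930) was at 1.37, 1.52, 1.62 and 1.67 FPKM in Col-0, 1.49 and 1.2 for Aa-0, 0.88 and 0.92 for Per-1, 0.98 and 1.1 for Col-0×Aa-0 and 0.88 and 1.09 for Col-0×Per-1. For this gene Per-1 and both hybrids lay below Col-0 and Aa-0. The call over the 5 groups was lost under 11 of 18 alternatives for CDKB2;1 and under 14 for CDKB2;2, median-ratio scaling among them for both. CDKB1;1 (AT3G54180) was at 0.51, 0.43, 0.69 and 0.86 FPKM in Col-0, 0.28 and 0.4 for Aa-0, 0.21 and 0.22 for Per-1, 0.78 and 0.41 for Col-0×Aa-0 and 0.14 and 0.74 for Col-0×Per-1, with overlap between groups. CDKB1;2 (AT2G38620) ranged from 0.36 to 0.46 FPKM in Col-0, was listed at 0 in both Aa-0 libraries, and ranged from 0.08 to 0.18 in the other groups. It was not tested with the filter, and without it CDKB1;2 was called over the 5 groups (adjusted p = 0.000137), lower than Col-0 in Aa-0 (3.4e-05), Col-0×Aa-0 (0.0016), Per-1 (0.00108) and Col-0×Per-1 (0.00134), and in the last of these also lower than the mid-parent (0.0237). CYCB2;2 was then called lower in Aa-0 (adjusted p = 0.0303). These calls without the filter rest on values of at most 0.48 FPKM, and CDKB1;2 overlaps another annotated gene.

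**Figure D3:**
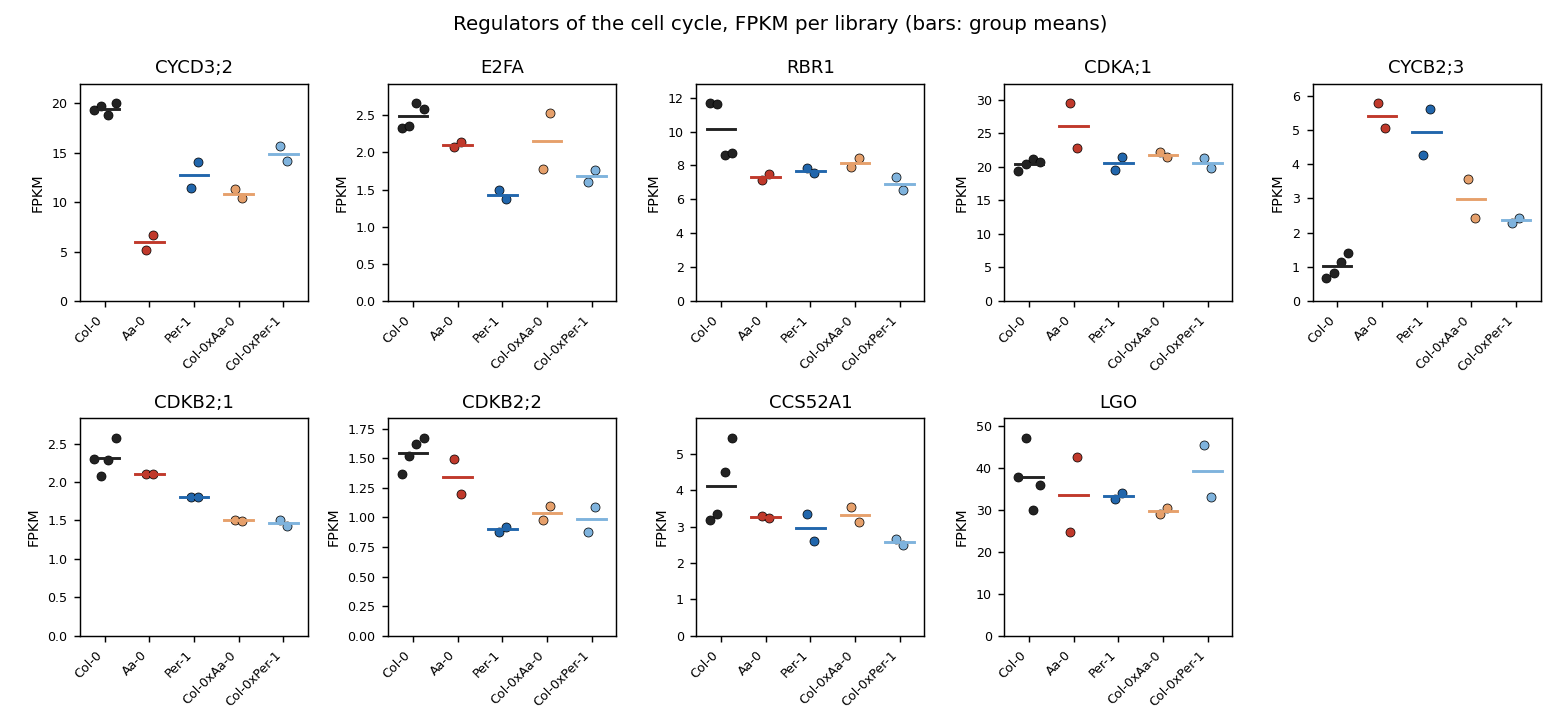
FPKM (y axis, linear from 0) of 9 regulators, 1 point per library and a bar at each group's mean, by group (x axis). CYCD3;2 is lowest in Aa-0 (5.19 and 6.67 FPKM), CYCB2;3 is lowest in Col-0 (0.67 to 1.4 FPKM), and CDKA;1, CCS52A1 and LGO did not pass the test over the 5 groups.

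Among the inhibitors, LGO (AT3G10525), a SIM family inhibitor that promotes endoreduplication in sepal and leaf epidermis, was the most abundant member, at 37.9, 47.1, 30 and 35.9 FPKM in Col-0, 24.8 and 42.6 for Aa-0, 32.5 and 33.9 for Per-1, 28.9 and 30.4 for Col-0×Aa-0 and 45.4 and 33.1 for Col-0×Per-1. The 2 Aa-0 libraries spanned the values of all other libraries except 2, and the gene did not pass (adjusted p = 0.655). CCS52A1 (AT4G22910), which activates the anaphase-promoting complex, was at 3.2, 3.35, 4.5 and 5.44 FPKM in Col-0, 3.3 and 3.24 for Aa-0, 3.34 and 2.62 for Per-1, 3.55 and 3.12 for Col-0×Aa-0 and 2.67 and 2.49 for Col-0×Per-1. It did not pass (adjusted p = 0.222). KRP1, KRP2 and CCS52A2 ranged from 10.6 to 28, from 2.68 to 5.05 and from 1.91 to 3 FPKM and were called in no comparison. SIM (AT5G04470), the founding member of its family, was the exception, lower in Per-1 (2.54 ± 1.03, SD, n = 2) than in Col-0 (5.16 ± 0.781, SD, n = 4), with a limma difference of -0.82 ± 0.201 (SE) and adjusted p = 0.0152. That call was lost under median-ratio scaling and without Per-1 replicate 1.

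The comparisons of the other groups with Col-0 ask how the accessions differ, and they share the Col-0 libraries. In Aa-0, 6 of 32 members were lower than in Col-0 and 1 was higher, where 12% of all genes tested were lower and 4.72% higher. The 6 were MCM2, MCM3, MCM7, PCNA2, ORC6 and CYCD3;2, and the other was CYCB2;3. Without ORC6 and CDT1A, 4 of 9 licensing genes were lower. The median of the members was -0.216, beside -0.136 for all genes, and that of the licensing genes was -0.530. Without Aa-0 replicate 1 or 2 the members called fell to 2 and 3, and with Col-0 replicates 3 and 4 alone they numbered 13.

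In Per-1, 15 of 32 members were lower than in Col-0 and 1 was higher, where 19.6% of all genes tested were lower and 6.17% higher. The lower members were 10 of 11 licensing genes (8 of 9 without ORC6 and CDT1A), CYCD1;1, CYCD3;2, E2FA, CDKB2;2 and SIM. The differences of the MCM genes ran from -0.50 ± 0.163 (SE) for MCM4 (adjusted p = 0.0499, lost under 15 of 18 alternatives) to -0.89 ± 0.138 for MCM7 (adjusted p = 0.00146). The members' median was -0.458, beside -0.191 for all genes, and that of the licensing genes was -0.677. Under median-ratio scaling 9 were lower and 1 higher, of which 7 were licensing genes, and without Per-1 replicate 1 or 2 the members called fell to 6 and 10.

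Per-1 and Aa-0 differed from each other in 3 members. CYCD3;2 was higher in Per-1, where 4.67% of all genes tested were higher, and PCNA2 and CDC6 were lower, where 5.29% were lower.

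In Col-0×Per-1, 15 of 32 members were lower than in Col-0 and CYCB2;3 was higher, where 17.3% of all genes tested were lower and 2.66% higher. All 11 licensing genes tested were among the lower ones (9 of 9 without ORC6 and CDT1A), with E2FA, RBR1, CDKB2;1 and CDKB2;2, and CDC6 was the least stable of them, its call lost under 15 of 18 alternatives. MCM7 differed by -1.09 ± 0.138 (SE, adjusted p = 0.00173) and PCNA2 by -1.23 ± 0.162 (adjusted p = 0.00204), and these 2 calls held under every alternative run. The members' median was -0.410, beside -0.228 for all genes, and that of the licensing genes was -0.763. The count rested on single libraries, since 2 members were called without Col-0×Per-1 replicate 2, 6 without its replicate 1, and 10 without Col-0 replicate 4 or without either Per-1 library. Under median-ratio scaling 6 were lower, all of them licensing genes, and 1 higher.

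In Col-0×Aa-0, CYCD3;2 was lower than in Col-0 and CYCB2;3 higher, where 1.17% of all genes tested were lower and 1.13% higher. No licensing gene of 11 was called, and 4 had an unadjusted p under 0.05 in limma. Against Aa-0, CYCD3;2 alone was called, higher by 0.78 ± 0.137 (SE, adjusted p = 0.0112), where 1.87% of all genes tested were higher and 0.872% lower. Without Col-0×Aa-0 replicate 1 or 2 the calls against Col-0 numbered 0 and 1, and the call against Aa-0 was lost without either of them or without Aa-0 replicate 1.

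**Figure D4:**
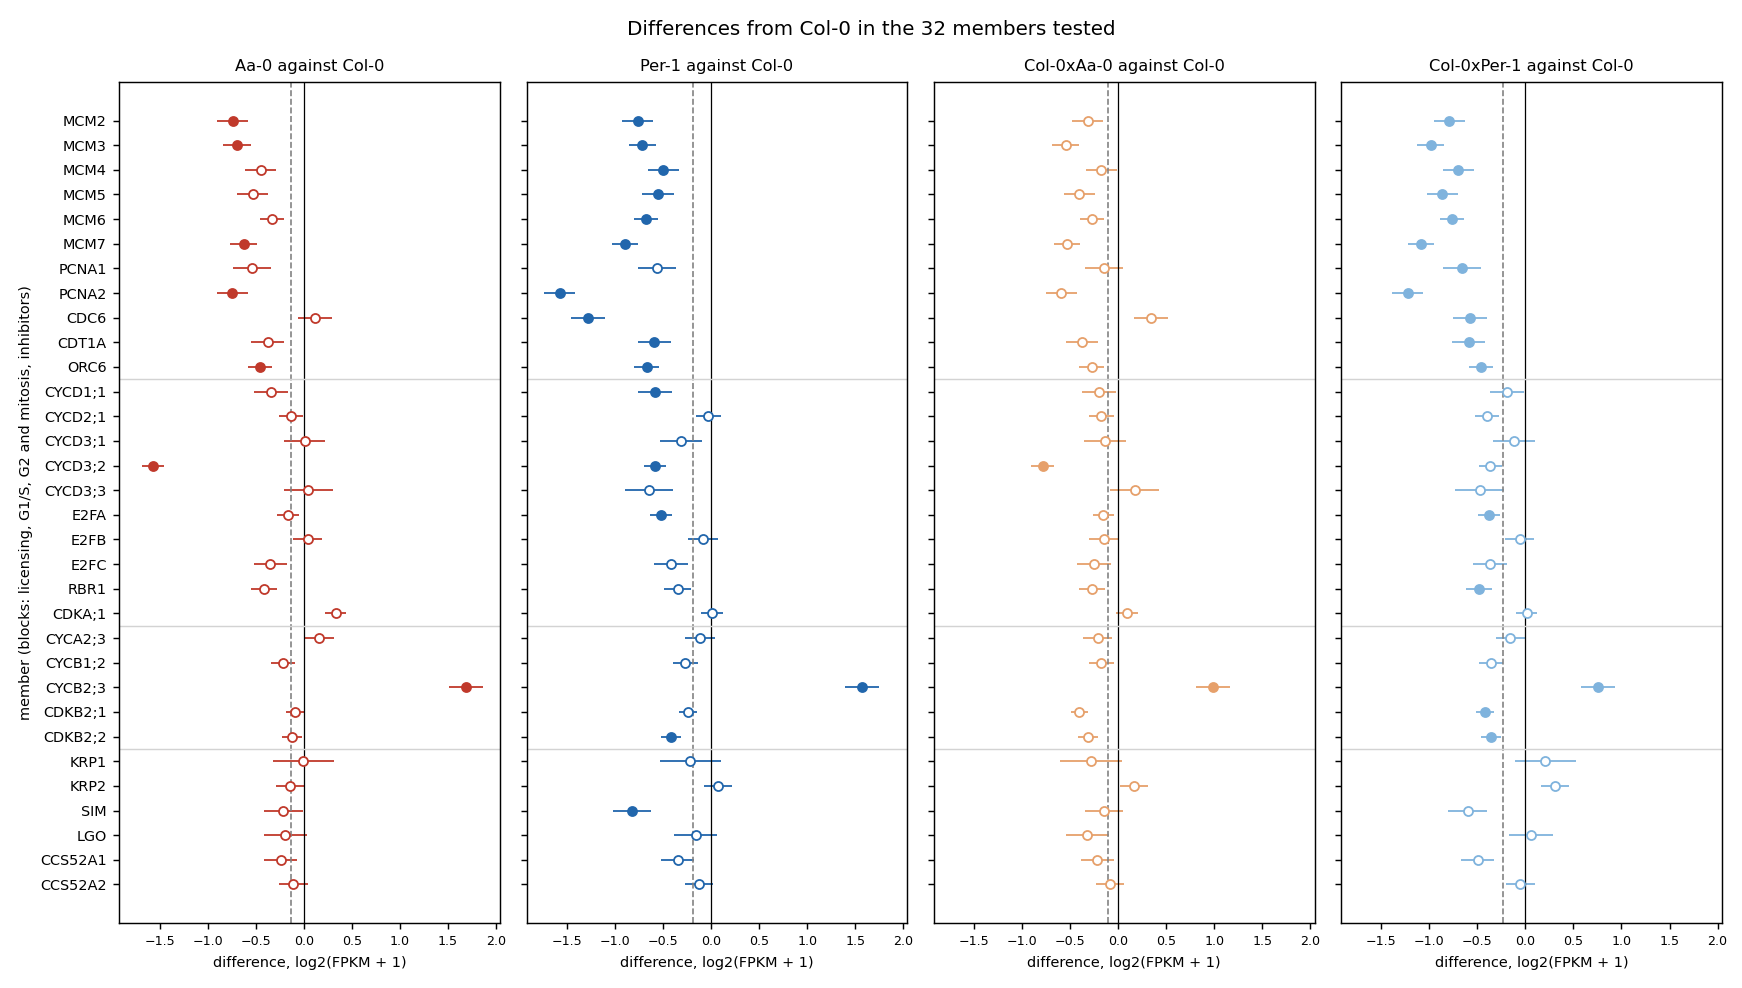
Difference from Col-0 in log2(FPKM + 1) (x axis) of each of the 32 members tested (y axis, in blocks by phase), with bars of 1 standard error, filled where called and open where not, in 4 panels by group. The dashed line marks the median of all genes tested (-0.136, -0.191, -0.105 and -0.228 from left to right). The licensing block lies to the left of that line in Per-1 and Col-0×Per-1, and CYCB2;3 lies to the right in every panel.

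Heterosis studies compare a hybrid with the mid-parent, here the log2 of the mean of both parents' levels. In Col-0×Per-1, MCM7 and MCM3 were below the mid-parent, by -0.71 ± 0.131 (SE, adjusted p = 0.0281) and -0.67 ± 0.134 (adjusted p = 0.0363), where 2.2% of all genes tested were lower and 0.366% higher. All 11 licensing genes had a negative deviation, from -0.08 for CDC6 to that of MCM7. Their median was -0.464, with ORC6 and CDT1A included, beside -0.143 for all genes. The share of all genes with a negative deviation was not counted. PCNA2 (-0.64 ± 0.153, adjusted p = 0.0587), MCM5 (-0.61 ± 0.154, adjusted p = 0.0678) and MCM6 (-0.46 ± 0.118, adjusted p = 0.0702) did not pass. Both calls were lost under median-ratio scaling, which left 0 members called, and without Col-0 replicate 3, Per-1 replicate 1 or either Col-0×Per-1 library, and MCM3 was also lost without Col-0 replicate 1, Per-1 replicate 2 or either Col-0×Aa-0 library. With Col-0 replicates 3 and 4 alone 12 members were called, 8 of them licensing genes, and the share of all genes called in that run is not given here.

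In Col-0×Aa-0, 0 of 32 members were called against the mid-parent in limma and 2 had an unadjusted p under 0.05, where 0.128% of all genes tested were called higher and 0.11% lower. Those 2 were CDKB2;1 (-0.36 ± 0.088, SE, adjusted p = 0.314) and CDKB2;2 (-0.26 ± 0.098). The difference between the hybrids in their deviation from the mid-parent passed for 0 members in limma, where 0.0523% of all genes tested were higher and 0.18% lower, and 4 (MCM2, MCM3, MCM4 and MCM7) had an unadjusted p under 0.05. A difference between the hybrids was therefore not shown for any member. Against Per-1, 0 members of Col-0×Per-1 were called in limma, with 3 at an unadjusted p under 0.05, where 2.41% of all genes tested were higher and 2.34% lower.

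**Figure D5:**
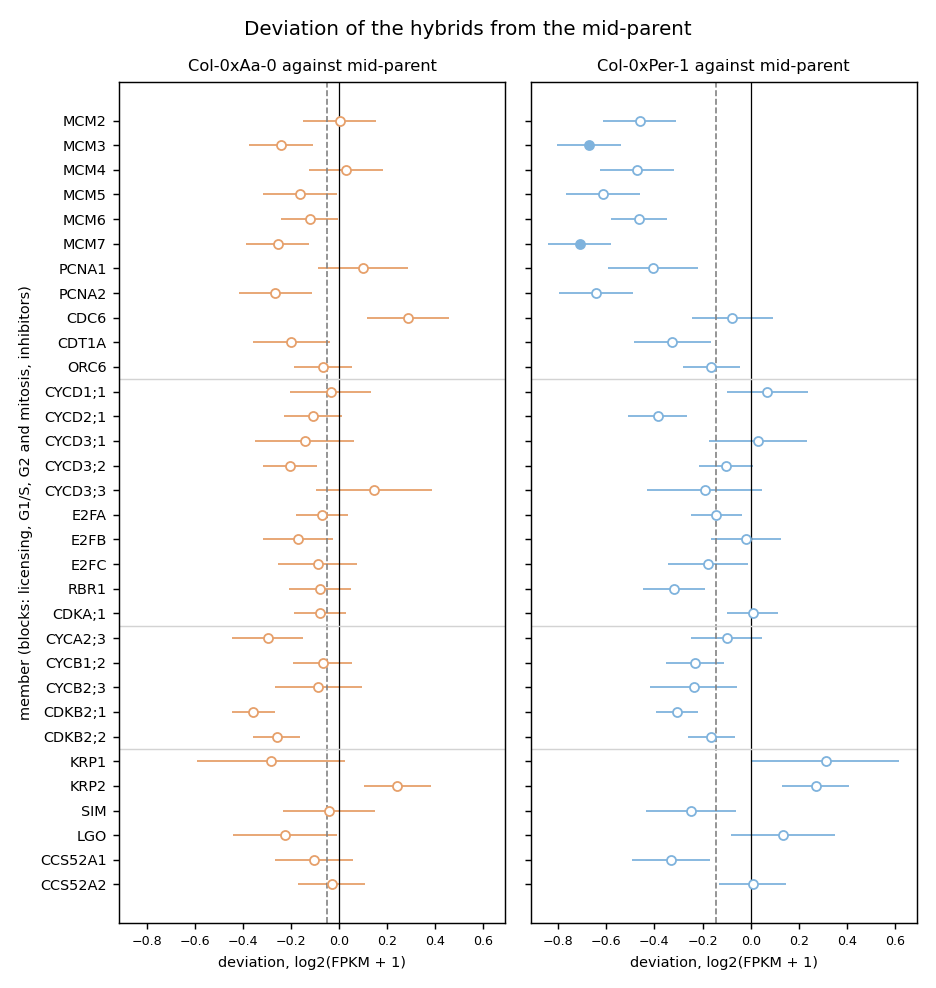
Deviation from the mid-parent in log2(FPKM + 1) (x axis) of the 32 members tested (y axis, in blocks by phase) in Col-0×Aa-0 (left) and Col-0×Per-1 (right), with bars of 1 standard error, filled where called. The dashed line marks the median of all genes tested (-0.049 and -0.143). MCM3 and MCM7 in Col-0×Per-1 are the filled points.

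The 4 Col-0 libraries differed among themselves in these genes. Replicates 3 and 4 were both above replicates 1 and 2 for 9 of 16 licensing genes, where 35.4% of all genes tested were, and both below for 1 of 16, where 25.5% were. The 9 were MCM2 to MCM7, PCNA1, ORC2 and ORC6. The 16 include genes too low to be tested, among them ORC2 and the 1 below, CDT1B, while those shares cover tested genes alone. KRP1 (AT2G23430) had 24.6 and 28 FPKM in the first pair of libraries, replicates 1 and 2, but 13.8 and 10.6 in the second, and RBR1 also differed in that order, as given above. The mesophyll gene RBCS1A was listed at 0 in the first pair and reached 19509 and 19500 FPKM in the second. Of the other 3 mesophyll markers, RCA had 8041 and 7671 FPKM against 3682 and 4029, LHCB2.1 had 4169 and 4394 against 2640 and 3364, and CAB3 overlapped between the pairs. The trichome gene TRY had 5.43 and 6.84 against 0.07 and 0.32. The sources used here do not say whether the pairs were grown or processed alike, and the Col-0 means and spread include whatever differed between them, the part of which in these results was not tested. With replicates 1 and 2 alone, 4 licensing genes of 9 tested were called lower in Aa-0, 6 in Per-1 and 7 in Col-0×Per-1. The share of all genes called in that run is not given here, so these counts have no background beside them.

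Markers of other cells that divide were read beside the licensing genes. The 9 markers of shoot meristem and boundary summed to 0.19 to 0.43 FPKM in every library, with WUS and CLV3 at 0 in all 12. The 9 markers of the stomatal lineage, whose precursors divide in the leaf epidermis, summed to between 37.1 and 47.9 FPKM in Col-0, 39 and 50 for Aa-0, 29.6 and 32.4 for Per-1, 33.4 and 36.3 for Col-0×Aa-0 and 32.4 and 35.4 for Col-0×Per-1. Of the 4 tested, SCRM2 (difference -0.63 ± 0.120, SE, adjusted p = 0.00474) and TMM (-0.36 ± 0.115, adjusted p = 0.0462) were lower in Per-1 than in Col-0, and TMM was higher in Aa-0 (0.58 ± 0.115, adjusted p = 0.00779). SPCH, MUTE, EPF2, BASL and POLAR, among the defining ones, were at most 1.26 FPKM in any library. Of the 4 mesophyll markers, which summed to 15900 to 31300 FPKM in Col-0 and 33400 to 43470 elsewhere with RBCS1A at 0 in a pair of Col-0 libraries, CAB3 was higher than Col-0 in Aa-0 (difference 0.62 ± 0.144, adjusted p = 0.0168), Per-1 (0.65 ± 0.144, adjusted p = 0.0101) and Col-0×Per-1 (0.50 ± 0.144, adjusted p = 0.0382). LHCB2.1, RCA and RBCS1A had positive differences there and did not pass. The part of these cells in the licensing result was not tested.

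A further 88 cell cycle genes, listed from general knowledge, were read in the same fit, and 58 were tested. Of these 22 differed over the 5 groups, 14 were lower and 2 higher in Aa-0 than in Col-0, 20 lower and 2 higher in Per-1, and 20 lower and 0 higher in Col-0×Per-1. The shares of all genes tested were 25.6% over the groups, 12% lower and 4.72% higher for Aa-0, 19.6% and 6.17% for Per-1, and 17.3% and 2.66% for Col-0×Per-1. Of the 58, CYCA1;2, CENH3, RPA70B and KRP7 reached 1 FPKM in Col-0 alone and SMR7 in Per-1 alone. Without these 5, 19 of 53 differed over the groups. Of the 53, 12 were lower and 2 higher in Aa-0, 17 lower and 1 higher in Per-1, and 18 lower in Col-0×Per-1. The replication machinery had 23 genes tested, of which 8 were lower in Aa-0, 9 in Per-1 and 11 in Col-0×Per-1. Without RPA70B these were 8, 8 and 11 of 22. The medians of all 23 were -0.395, -0.384 and -0.571, beside -0.136, -0.191 and -0.228 for all genes. RNR1 (AT2G21790), the large subunit of ribonucleotide reductase that makes deoxyribonucleotides, was at 8.11, 9.14, 10.8 and 11.2 FPKM in Col-0, 5.23 and 4.74 for Aa-0, 4.71 and 3.97 for Per-1, 4.99 and 6.06 for Col-0×Aa-0 and 3.92 and 3.2 for Col-0×Per-1. All Col-0 libraries were above all others, as for MCM7.

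MET1 (AT5G49160), which copies CG methylation onto new DNA, differed from Col-0 by -0.58 ± 0.089 (SE) in Aa-0 (adjusted p = 0.00181) and by -0.71 ± 0.089 in Per-1 (0.000402). FAS1 (AT1G65470), a subunit of the chromatin assembly factor that follows the fork, differed by -0.44 ± 0.120 in Aa-0 (0.0324) and by -0.79 ± 0.120 in Per-1 (0.00124). In G1/S control CYCA3;2 was the 1 gene of 5 that passed over the groups, at 2.49 to 3.21 FPKM in Col-0 and 1.51 to 2.36 elsewhere. Of 14 mitotic genes tested 7 passed, or 6 of 12 without CYCA1;2 and CENH3. The 7 were led by MAD2, a spindle checkpoint protein whose gene, like those of MYB3R1 and SPO11-3, overlaps another (1.67 to 2.07 FPKM in Col-0 and 0.58 to 1.38 elsewhere), CYCA1;2 (1.21 to 2.07 and 0.4 to 0.76, testable through Col-0 alone) and MYB3R1, a factor that binds the MSA element (6.16 to 7.43 and 3.64 to 6.24). Against that direction, CDC20.2, an activator of the anaphase-promoting complex, was higher than Col-0 in Aa-0 (0.66 ± 0.124, SE, adjusted p = 0.00595) and Per-1 (0.41 ± 0.124, adjusted p = 0.0355), and the mitotic cyclin CYCB1;4 was higher in Aa-0 (0.75 ± 0.194, adjusted p = 0.0271), both named after their values were seen.

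Of 16 inhibitor, APC/C and endoreduplication genes tested 3 passed, of which KRP7 and SMR7 passed the filter through 1 group each, which leaves 1 of 14. SPO11-3, a topoisomerase VI subunit needed for endoreduplication, was at 3.75 to 4.6 FPKM in Col-0, at only 0.86 and 0.95 for Aa-0, and at 1.72 to 2.76 in the other groups. KRP7 was at 1.05 to 1.33 FPKM in Col-0 and 0.19 to 0.55 elsewhere, and reached 1 FPKM in Col-0 alone. SMR7, a SIM family inhibitor linked to the response to DNA damage, was at 3.21 and 1.32 FPKM in Per-1 and at 0.37 or less in every other library, so it could be tested only because Per-1 was high. Against the mid-parent 4 of the 58 were lower in Col-0×Per-1, where 2.2% of all genes tested were, namely LIG1, POLA2, RNR1 and KRP7 (3 of 53 without KRP7 and the other 4 genes above), the first pair named after their values were seen, and in Col-0×Aa-0 0 were called in limma, with 3 at an unadjusted p under 0.05.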

How the data were processed

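RNA was sequenced from first leaves in 12 libraries of 5 genotypes, grouped by the sample labels. The FPKM values were used as deposited by the authors. The submitters' processing notes name the TAIR10 build, Cufflinks 2.0.2, TopHat2 2.0.8b, edgeR 3.12.0 and TopHat. The sources used here do not say which of them made the FPKM or with what filters. Per the labels' protocols, RNA was extracted on RNeasy columns, and the TruSeq v2 RNA libraries carry no strand mark.

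With R 4.3.3 and limma 3.58.1 (eBayes with a trend), a group-means model of log2(FPKM + 1) was fitted to all 12 libraries with 7 residual degrees of freedom, for the 17203 genes at 1 FPKM or more in at least 2 libraries. P-values were adjusted by Benjamini-Hochberg over all of them, and the mid-parent had standard errors by the delta method. The script was tested on simulated data. Alternatives were a pseudocount of 0.1, no filter, median-ratio scaling, pairs of Col-0 libraries, a replicate block, another mid-parent and each library left out. Member counts under an alternative are given without the share of all genes called under it. A change in such a count therefore cannot be told from a change over all genes. The members and lists were chosen with earlier results of these data known. Library values were given for members called over the 5 groups or against a mid-parent, for CYCB1;1, CDKB1;1, CDKA;1, RBR1, CCS52A1 and LGO, and for up to 3 called genes per further list. KRP1, SIM, RBCS1A, TRY and the markers named singly were chosen after their values were seen. All 44 member names were found in the RefSeq TAIR10.1 annotation, and of the further genes 4 whose symbol conflicted were left out. Promoter windows were read from that genome by gene identifier with Python 3.11.15 and pandas 2.3.3, and plots were made with matplotlib 3.10.9.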

Additional observations from a re-analysis of the deposited data

Results flagged for a closer look

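E2FB in Col-0 replicate 4 was at 1.93 FPKM, while the other 3 Col-0 libraries were at 2.88 to 3.04 FPKM, a gap that a screen for outliers flagged. E2FB is an activating E2F of G1/S control and was called in none of the comparisons. Chance flags about 1 in 20 groups of this size. The 32 members tested were screened in Col-0, the 1 group large enough for the screen, so 1 flag is within what chance would give.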

How the results depend on the processing

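Of 61 member calls over the 11 comparisons, 19 held under every alternative run, 42 were lost under at least 1, and 0 changed direction. The 61 include the calls of ORC6 and CDT1A, which could be tested only because Col-0 was high. Among the 19 is that of ORC6 in Per-1 against Col-0, which only 15 alternatives could test, where MCM7 had 18. Under median-ratio scaling the members called numbered 9 over the 5 groups, 10 for Per-1 against Col-0, 7 for Col-0×Per-1 against Col-0 and 0 for Col-0×Per-1 against the mid-parent, fewer than without it. Without the filter 11 were called for Aa-0 against Col-0, as more members were tested. With Col-0 replicates 1 and 2 alone the counts were 1 for the deviation of Col-0×Aa-0 from its mid-parent, 4 for it against Col-0, 10 for Col-0×Per-1 against Col-0 and 1 for it against Per-1. With Col-0 replicates 3 and 4 alone they were 13 for Aa-0 against Col-0, 12 for Col-0×Per-1 against the mid-parent and 1 for it against Per-1, and log2(FPKM + 0.1) also gave 1 there. With the replicate block the counts were 0 for Col-0×Per-1 against the mid-parent, 9 for it against Col-0, 1 for it against Per-1 and 4 for Col-0×Aa-0 against Col-0. The replicate numbers were not taken to pair the libraries, since the labels tie no number to a shared source. Deviations of same-numbered libraries correlated between -0.585 and 0.369 over the 10 pairs of groups, which does not settle whether they pair. Among Col-0, Per-1 and Col-0×Per-1 alone the correlations were 0.294, 0.292 and 0.369, and the block ended both mid-parent calls there, MCM7 and MCM3. Leaving out 1 library at a time gave 8 to 14 members over the 5 groups, 2 to 8 for Aa-0 and 6 to 16 for Per-1 against Col-0, and 2 to 3 for Per-1 against Aa-0. It gave 0 to 3 for Col-0×Per-1 against the mid-parent, 2 to 18 for it against Col-0, 0 to 1 for it against Per-1, 0 to 2 for Col-0×Aa-0 against Col-0 and 0 to 1 for it against Aa-0. Where such a setting leaves a group with 1 library, that library is assumed to vary like the others. The cause of each of these changes was not tested. Most members lie under 4 FPKM, where depth, which is unknown here, limits precision.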
